A study of Homo sapiens with 6 samples.

Results

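The genes described here encode proteins that keep repeats and other loci silent in chromatin. They were chosen by name, and 10 of the 28307 gene symbols in the deposited gene tables were members: TRIM28, SETDB1, ATF7IP, TASOR, MPHOSPH8, PPHLN1, MORC2, DNMT1, DNMT3A and DNMT3B. Each was listed once in every library. Their RNA was compared in SW480, a widely used human line from a colon adenocarcinoma. The control cells expressed the fluorescent protein Clover (3 libraries), and the other cells expressed Z18trunc, a ZC3H18 protein cut short (3 libraries). ZC3H18 takes part in nuclear RNA surveillance. Both proteins were made from a pLENTI vector with the CMV promoter. Cells of both groups went through lentiviral transduction and antibiotic selection and kept their own ZC3H18 gene. The study describes the lines as made in biological triplicate. They were selected pools, so the level of the introduced protein can vary between cells. RNA was polyA-selected before stranded libraries were made. The question was whether the genes of the silencing machinery, their intronic RNA and the RNA of repeats they are known to silence differed when truncated ZC3H18 was present.

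KRAB zinc-finger proteins bind particular DNA sequences in repeats and recruit TRIM28, which in turn recruits the histone methyltransferase SETDB1. SETDB1 places the repressive mark H3K9me3, and ATF7IP stabilizes SETDB1 in the nucleus. The HUSH complex, made of TASOR, MPHOSPH8 and periphilin (PPHLN1), reads this mark, binds RNA of intronless loci such as young L1 elements, and works with the ATPase MORC2. DNMT3A and DNMT3B place methyl groups on unmethylated CpG sites, and DNMT1 copies them to the new strand after replication. HUSH has also been linked to the nuclear exosome targeting machinery, with which ZC3H18 associates. The study reports that ZC3H18 protein was not found with key HUSH components, in earlier work or in its own pull-downs from melanoma cells. The exception was PPHLN, which fell below its filtering threshold.

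As a check of the labels, ZC3H18 had mean levels of 57.2 ± 5.39 in the controls and 763 ± 31.2 with Z18trunc, in TPM (a level per transcript length, scaled to the same total in each library; SD, n = 3 each). Its log2 change was 3.72 (SE 0.09, limma adjusted p = 3.2e-05). Libraries held 18226033 to 22463310 aligned fragments. The 7 colon epithelial markers summed to between 22872 and 24914 TPM in every library. Marker sums of leukocytes, fibroblasts, endothelium and melanocytes were at most 4.93 TPM, and PTPRC, COL3A1, PECAM1 and MLANA were listed at 0 in all 6 libraries. Two-sided limma tests on log2(TPM + 1) covered 13300 genes with a mean of at least 1 TPM, and the median gene was 0.11 higher in Z18trunc on that scale. Fold changes on it understate the change of low genes. Quantile normalization, which gives every library the same distribution, brought that median to -0.01. In bulk RNA, fewer cells with a transcript and less of it per cell cannot be told apart.

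None of the 10 silencer genes passed limma at an adjusted p under 0.05, where 2 of 13300 genes, or 0.015%, did. At an unadjusted limma p under 0.05, 2 of the 10 were higher (DNMT3A and ATF7IP) and 0 lower, beside 25.6% of all tested genes higher and 2.9% lower. In 5 of the 10 (DNMT3A, ATF7IP, SETDB1, TASOR and MPHOSPH8) every Z18trunc library lay above every Clover library, a pattern that 30.1% of tested genes showed. None lay below every Clover library, where 6.73% of tested genes did. The first share was no higher than that of genes at large and the second was above it, by counts of 10 genes. Their median difference was 0.21 on the log2 scale against 0.11 for all genes, and 0.09 against -0.01 after quantile normalization. After it 0 of the 10 passed, beside 0.00752% of genes. DNMT3A and ATF7IP were then the members at an unadjusted limma p under 0.05 and without overlap, beside 12.8% of genes higher and 10.9% lower at that p, and 16.8% above and 16.2% below all controls. TRIM28 was the 1 member with a lower mean in Z18trunc, and DNMT3B joined it after quantile normalization (difference -0.06). When every library was instead centred on its median gene, which put the median of all tested genes at -0.06, MORC2, DNMT1 and DNMT3B were also below 0, at -0.02, -0.02 and -0.04.

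**Figure D1:**
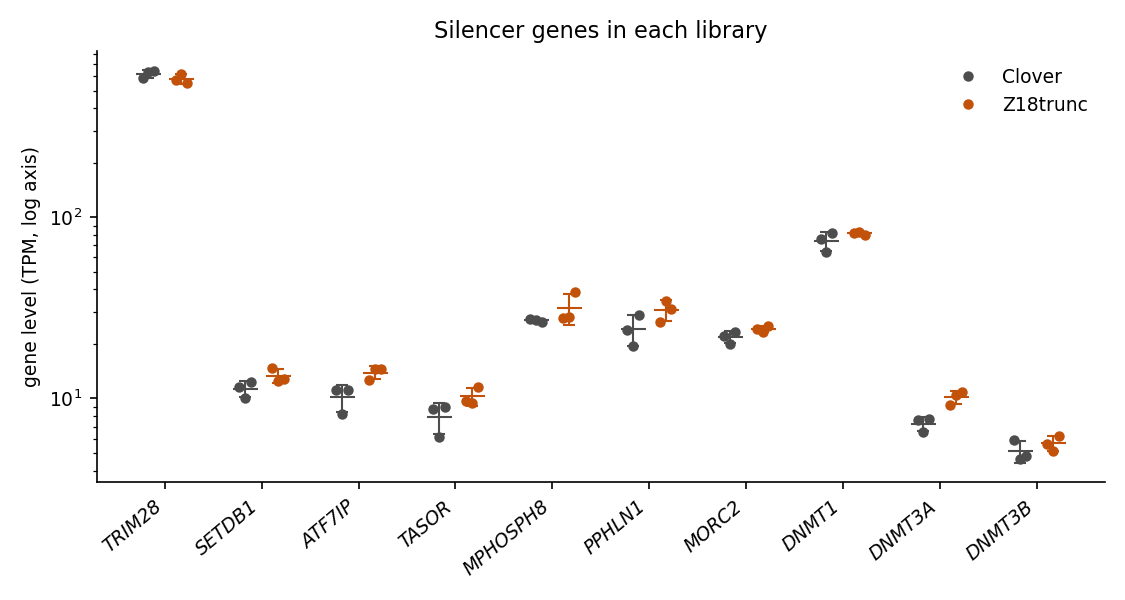
Gene level in TPM (log axis) of the 10 silencer genes in each of 3 Clover (grey) and 3 Z18trunc (orange) libraries, with horizontal ticks for the mean and bars for the SD. TRIM28 stands at 549 to 639 TPM in all 6 libraries, DNMT1 follows at 64.0 to 82.9 TPM, and DNMT3B is the lowest by mean in both groups.

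The members covered a wide range of levels. TRIM28 RNA was 7.73 times as abundant as DNMT1 RNA, 48.7 times as abundant as SETDB1 RNA and 111 times as abundant as DNMT3B RNA, as ratios of mean TPM over the 6 libraries. In Clover the order by mean was TRIM28, DNMT1, MPHOSPH8, PPHLN1, MORC2, SETDB1, ATF7IP, TASOR, DNMT3A and DNMT3B. Neighbours from MPHOSPH8 to MORC2 and from SETDB1 to DNMT3A overlapped in their libraries there. The order in Z18trunc was the same except that ATF7IP (13.9 TPM) stood before SETDB1 (13.3 TPM), and these neighbours overlapped. In both groups TRIM28 was clear of DNMT1, DNMT1 of MPHOSPH8, MORC2 of the gene next below it, and DNMT3A of DNMT3B.

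TRIM28, the scaffold that joins KRAB zinc-finger proteins to silencing enzymes, lies on chromosome 19 (hg38, 58544064 to 58550715, plus strand). It was at 586, 629 and 639 TPM in Clover replicates 1 to 3 and at 574, 621 and 549 TPM in Z18trunc. The groups overlapped, and Z18trunc replicate 3 was the lowest library. Means were 618 ± 28.3 and 581 ± 36.3 TPM (SD, n = 3 each). The log2 difference was -0.09 (95% interval -0.28 to 0.10, limma adjusted p = 0.498). It stayed below 0 in all 16 settings run, between -0.25 and -0.05. The -0.25 came with median centring, at an unadjusted limma p of 0.0347 and a limma adjusted p of 0.152. In that setting 18.5% of all tested genes were lower at an unadjusted limma p under 0.05.

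SETDB1, the H3K9 methyltransferase of this pathway, lies on chromosome 1 (150926263 to 150964737). It was at 11.5, 10.1 and 12.3 TPM in Clover and at 14.7, 12.5 and 12.8 TPM in Z18trunc. Every Z18trunc library was above every control, and the means were 11.3 ± 1.14 and 13.3 ± 1.20 TPM (SD, n = 3 each). Its log2 difference of 0.22 (SE 0.10, limma adjusted p = 0.211) went to 0.03 after quantile normalization, where the groups overlapped, and to 0.14 without Clover replicate 2.

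ATF7IP, the partner that keeps SETDB1 stable and nuclear, lies on chromosome 12 (14365632 to 14502935). Its levels were 11.2, 8.21 and 11.1 TPM in Clover and 12.6, 14.6 and 14.6 TPM in Z18trunc. Every Z18trunc library was above every Clover library, also after quantile normalization. The log2 difference was 0.43 (95% interval 0.12 to 0.74), with an unadjusted limma p of 0.0143 and a limma adjusted p of 0.0992. After quantile normalization it was 0.24, with an unadjusted limma p of 0.0390 and a limma adjusted p of 0.190.

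**Figure D2:**
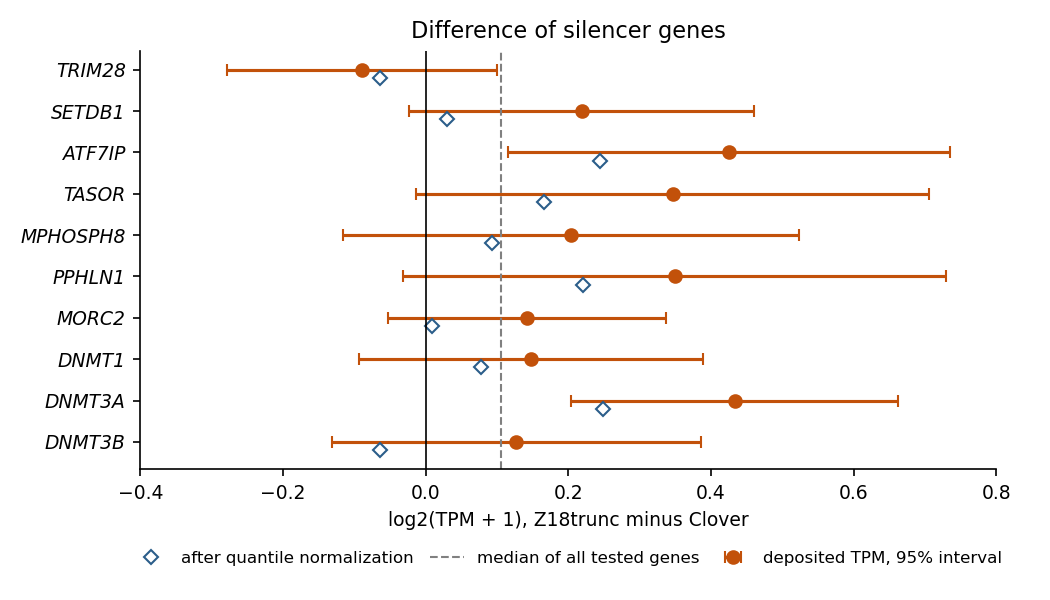
Difference in log2(TPM + 1), Z18trunc minus Clover, for each silencer gene. Filled circles with bars are the deposited TPM with the 95% interval of limma, open diamonds are values after quantile normalization, and the dashed line is the median of all tested genes (0.11); the intervals of DNMT3A (0.20 to 0.66) and ATF7IP (0.12 to 0.74) lie above 0 and that of TRIM28 spans it.

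TASOR, the platform subunit of HUSH, lies on chromosome 3 (56620132 to 56683265, minus strand). It was at 8.74, 6.11 and 8.93 TPM in Clover and at 9.73, 9.42 and 11.6 TPM in Z18trunc. Clover replicate 2 stood below the other two controls, and the groups did not overlap. The log2 difference was 0.35 (95% interval -0.01 to 0.71, limma adjusted p = 0.189), and 0.19 without Clover replicate 2.

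MPHOSPH8, the HUSH subunit with a chromodomain that binds methylated H3K9, lies on chromosome 13 (19633659 to 19673441, plus strand). It was at 27.5, 26.9 and 26.5 TPM in Clover, the tightest control group of the 10 genes, and at 27.7, 28.2 and 38.9 TPM in Z18trunc. Z18trunc replicate 3 stood apart, and the other two were just above the highest control. The log2 difference of 0.20 (SE 0.13, limma adjusted p = 0.361) was 0.05 without that library.

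PPHLN1, the RNA-binding HUSH subunit periphilin, lies on chromosome 12 (42326145 to 42448621, plus strand). It was at 23.7, 19.6 and 29.0 TPM in Clover and at 26.5, 34.6 and 31.2 TPM in Z18trunc. The groups overlapped, and the log2 difference was 0.35 (95% interval -0.03 to 0.73, limma adjusted p = 0.205), and 0.21 without Clover replicate 2.

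MORC2, the ATPase that compacts HUSH-bound loci, lies on chromosome 22 (30925130 to 30968774, minus strand). It was at 22.2, 20.0 and 23.4 TPM in Clover and at 24.3, 23.3 and 25.1 TPM in Z18trunc. The groups overlapped by a small margin, and the log2 difference was 0.14 (SE 0.08, limma adjusted p = 0.297), and 0.08 without Clover replicate 2. MORC2-AS1, which overlaps its end on the other strand, was listed at 0 in 5 libraries and at 0.242 TPM in Z18trunc replicate 3.

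DNMT1, the maintenance methyltransferase, lies on chromosome 19 (10133346 to 10194953, minus strand). It was at 75.5, 64.0 and 81.7 TPM in Clover and at 81.8, 82.9 and 79.6 TPM in Z18trunc. The Z18trunc libraries sat close together, at 81.4 ± 1.68 TPM (SD, n = 3), inside the range spanned by the controls and just past it. The log2 difference was 0.15 (SE 0.10, limma adjusted p = 0.380). It was 0.05 without Clover replicate 2, the lowest control, and 0.22 without Clover replicate 3.

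DNMT3A, a de novo methyltransferase, lies on chromosome 2 (25227877 to 25342590, minus strand). It was at 7.61, 6.52 and 7.66 TPM in Clover and at 9.16, 10.4 and 10.9 TPM in Z18trunc. The groups did not overlap, before or after quantile normalization, and the means were 7.27 ± 0.642 and 10.2 ± 0.898 TPM (SD, n = 3 each). This was the largest log2 difference among the 10 genes, 0.43 (95% interval 0.20 to 0.66), with an unadjusted limma p of 0.00304 and a limma adjusted p of 0.0773. After quantile normalization the difference was 0.25, with an unadjusted limma p of 0.00841 and a limma adjusted p of 0.127. When genes below a mean of 5 TPM were left out, its limma adjusted p was 0.0489, and 474 genes passed there in all.

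DNMT3B, the other de novo enzyme, lies on chromosome 20 (32762385 to 32809356, plus strand). It was at 5.91, 4.61 and 4.81 TPM in Clover and at 5.61, 5.13 and 6.23 TPM in Z18trunc, with overlap. The log2 difference was 0.13 (SE 0.11, limma adjusted p = 0.477), and it was 0.22 without Clover replicate 1 and 0.07 without Clover replicate 2 or Z18trunc replicate 3. The balance of the 2 de novo enzymes was compared library by library. DNMT3B stood at 0.776, 0.707 and 0.628 of the DNMT3A level in Clover and at 0.613, 0.492 and 0.573 in Z18trunc. On the log2(TPM + 1) scale used for the tests, the log2 ratio had means of -0.44 ± 0.13 with Clover and -0.75 ± 0.14 with Z18trunc (SD, n = 3 each), and they differed by -0.31 without overlap. The exact two-sided permutation p was 0.1, the smallest that 3 against 3 libraries allow. DNMT1 was 8.90 times the DNMT3A level and 14.4 times the DNMT3B level over the 6 libraries.

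The same libraries were often extreme in the members and in genes at large. Clover replicate 2 was the lowest library for 8 of the 10, beside 47.8% of all tested genes, and Z18trunc replicate 3 was the highest for 5 of the 10, beside 30.4%. Without Clover replicate 2 the median difference of the 10 was 0.17, and DNMT3A and ATF7IP were still the genes at an unadjusted limma p under 0.05, beside 19.4% of all tested genes higher. Without Clover replicate 3 there were 5 such genes, with PPHLN1, SETDB1 and TASOR added, beside 23.2% of all tested genes. Across the 6 libraries, TASOR, ATF7IP and MORC2 tracked the mean of the z-scored members most closely, with Pearson r of 0.975, 0.975 and 0.964, and TRIM28 ran against it at -0.57. Among 13290 other tested genes, SPIRE1 (r 0.998), DOCK4 (0.998), PNMA2 (0.996), DYNLT3 (0.996) and OTUD4 (0.996) had patterns most like that mean. The mean contains each member itself, which raises the r of members but not that of other genes. These correlations describe 6 libraries in 2 groups, and 2044 other genes, or 15.4%, exceeded 0.9.

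The promoters of the 2 genes with the smallest p-values are shown because CpG sites are the substrate of the DNMT enzymes. Each runs from 250 bases before to 50 bases after a RefSeq start (GRCh38.p14), 5′ to 3′ on the strand of the gene, with CpG in capitals.
ATF7IP promoter, plus strand of chr12:14365432-14365731: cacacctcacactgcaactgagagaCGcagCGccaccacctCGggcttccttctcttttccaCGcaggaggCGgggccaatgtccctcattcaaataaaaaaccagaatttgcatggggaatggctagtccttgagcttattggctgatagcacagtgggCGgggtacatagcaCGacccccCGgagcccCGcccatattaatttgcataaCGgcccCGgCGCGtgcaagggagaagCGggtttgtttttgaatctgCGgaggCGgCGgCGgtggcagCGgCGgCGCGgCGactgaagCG
DNMT3A promoter, minus strand of chr2:25342541-25342840: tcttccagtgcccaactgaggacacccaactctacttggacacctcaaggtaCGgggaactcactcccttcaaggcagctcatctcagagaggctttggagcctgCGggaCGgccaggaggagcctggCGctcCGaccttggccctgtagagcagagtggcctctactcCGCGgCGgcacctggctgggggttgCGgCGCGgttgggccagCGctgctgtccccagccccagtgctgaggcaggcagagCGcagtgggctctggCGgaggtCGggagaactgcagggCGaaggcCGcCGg
The ATF7IP window held 24 CpG sites and the DNMT3A window 18, beside a median of 14 over 35116 promoter windows of the same length. RefSeq lists 6 starts for each of these genes, and the windows belong to the starts nearest to those of the deposited tables, 50 and 0 bases away. Windows were matched for 9 of the 10 members and held from 3 CpG (DNMT3B) to 43 (TASOR). The DNMT3B window belongs to a start 17467 bases inside the deposited gene. On either strand, the letters CCAAT (NF-Y) were in 5 of the 9 and in 34.6% of all windows, GGGCGG (Sp1) in 4 of the 9 and in 45.0%, and CCGGAAG (ETS) in PPHLN1 and in 10.3%. The ATF7IP window held CCAAT and GGGCGG, while neither was in the DNMT3A window. AAGATGGCG (YY1) and TTTCCCGC (E2F) were in none of the 9, and in 1.75% and 1.63% of all windows.

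Partners of the members were read from the same fit, and none of the listed genes passed over all genes at an adjusted limma p under 0.05. Of 23 partners in H3K9 methylation and heterochromatin, 8 were higher and 0 lower at an unadjusted limma p under 0.05, beside 25.6% and 2.9% of all genes, and the median difference was 0.24. After quantile normalization 4 were higher and 1 lower, beside 12.8% and 10.9%, and the median was 0.10. CBX3, a heterochromatin protein that binds methylated H3K9, was at 161, 164 and 170 TPM in Clover and at 196, 215 and 248 TPM in Z18trunc. Its log2 difference was 0.40 (limma adjusted p = 0.0823) and was also 0.40 after quantile normalization. HDAC2, a histone deacetylase of corepressor complexes, was at 13.5 ± 1.02 and 17.5 ± 1.19 TPM (SD, n = 3 each), a log2 difference of 0.36 that was 0.19 after quantile normalization. TRIM33, a relative of TRIM28, was at 5.96 ± 0.508 and 7.58 ± 0.528 TPM (SD, n = 3 each). They differed by 0.30 on the log2 scale, and by 0.12 after quantile normalization.

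Of 16 partners in DNA methylation, 14 were tested, and 6 were higher and 0 lower at an unadjusted limma p under 0.05, beside the same 25.6% and 2.9%. The median was 0.27. After quantile normalization 2 were higher and 0 lower, beside 12.8% and 10.9% of all genes, with a median of 0.10. ZBTB33 (Kaiso), which binds methylated DNA, was at 11.0 ± 1.81 and 15.5 ± 1.74 TPM (SD, n = 3 each), a log2 difference of 0.47 (limma adjusted p = 0.0925). UHRF2, a relative of the DNMT1 recruiter UHRF1, differed by 0.33, and USP7, a deubiquitinase that binds DNMT1, by 0.34. After quantile normalization ZBTB33 differed by 0.29, UHRF2 by 0.15 and USP7 by 0.24. MBD3, chosen after its values were seen, was at 71.0, 78.5 and 30.7 TPM in Clover and at 63.0, 26.3 and 25.6 TPM in Z18trunc. High and low values of MBD3 occurred in both groups. DNMT3L and TET1 were below 1 TPM on average and were not tested.

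Of 7 chaperones of histone H3 linked to ATRX, DAXX, HIRA and CAF-1, 1 was higher at an unadjusted limma p under 0.05. None was lower, beside 25.6% higher and 2.9% lower over all genes. The 1 gene was ASF1A, which hands histones to HIRA and CAF-1 (log2 difference 0.30, and 0.16 after quantile normalization). The median of the 7 was 0.05. After quantile normalization 0 were past that threshold, beside 12.8% of all genes higher and 10.9% lower. Of 18 KRAB zinc-finger genes, 10 were tested, 4 of them were higher and 0 lower at that threshold, beside 25.6% and 2.9% of all genes, and the median was 0.15. After quantile normalization 1 was higher and 0 lower, beside 12.8% and 10.9% of all genes, with a median of 0.00. ZNF587, whose near-identical copy ZNF417 can share its reads, was at 7.59 ± 0.851 and 9.11 ± 0.290 TPM (SD, n = 3 each). They differed by 0.24 on the log2 scale, and by 0.05 after quantile normalization. ZNF417, chosen after its values were seen, was at 2.67, 2.27 and 2.46 TPM in Clover. In Z18trunc ZNF417 was at 3.72, 3.74 and 4.38 TPM, without overlap. Its log2 difference was 0.51, and 0.35 after quantile normalization, where it was the 1 gene higher and again did not overlap. Of 18 replication genes, read because DNMT1 acts at replication, 5 were higher and 0 lower, a share near the 25.6% of all genes, with a median of 0.10 near the 0.11 of all genes. In 8 of the 18 every Z18trunc library lay above the controls, beside 30.1% of all genes. In 1 (MCM5, chosen after its values were seen) every Z18trunc library lay below them, beside 6.73%. After quantile normalization 5 of the 18 were higher and 1 lower at that unadjusted limma p, beside 12.8% and 10.9% of all genes. Their median was then 0.09, against -0.01 for all genes. RRM1, a ribonucleotide reductase subunit, differed by 0.42, the replication licensing factor CDC6 by 0.31 and the mitotic kinase AURKA by 0.26. Whether the proliferation of the cultures had a part in the member values was not tested.

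Germline genes that promoter methylation keeps silent in somatic cells were also read. DNA methylation itself was not measured, so their RNA does not show why a gene was silent. Of 25 such genes, 15 were listed at 0 in all 6 libraries and 9 others reached at most 0.719 TPM. MAGEC2, a cancer-testis antigen, was the 1 gene tested, at 3.25, 3.20 and 2.70 TPM in Clover and 3.04, 2.61 and 2.36 TPM in Z18trunc, with overlap and a log2 difference of -0.14. After quantile normalization the difference was -0.30, with an unadjusted limma p of 0.0407 and a limma adjusted p of 0.193. There 10.9% of all tested genes were lower at an unadjusted limma p under 0.05.

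**Figure D3:**
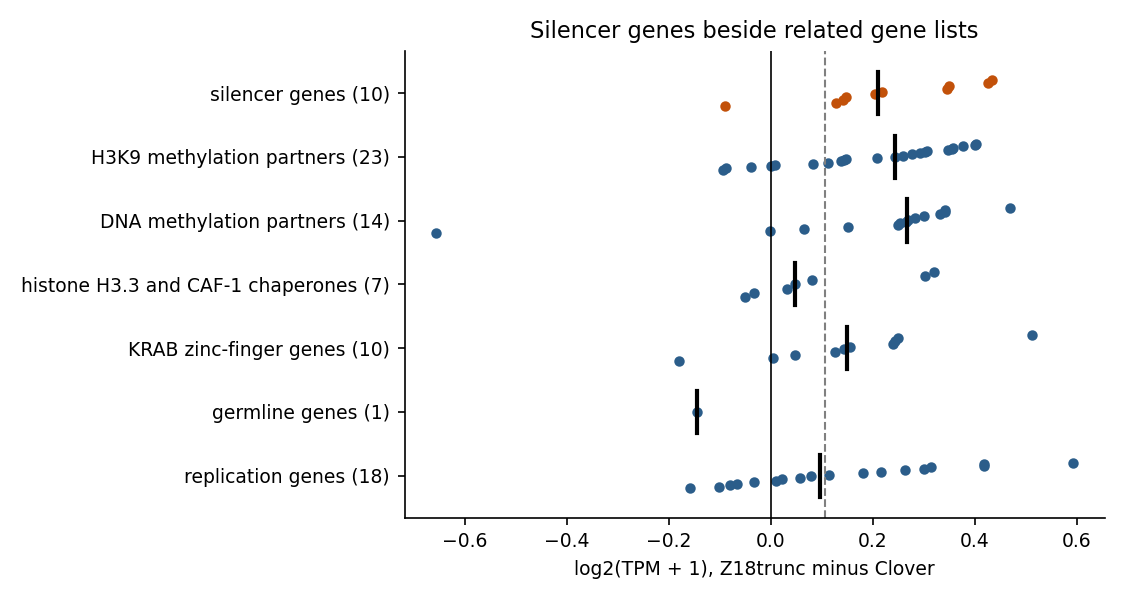
Difference in log2(TPM + 1), Z18trunc minus Clover, of each tested gene (dots) in the silencer set (orange) and 6 related lists (blue), with the number tested in brackets, black ticks at list medians and a dashed line at the median of all genes (0.11). The medians of silencers (0.21), H3K9 partners (0.24) and DNA methylation partners (0.27) lie right of the dashed line, and MBD3 is the dot at -0.66.

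Intronic RNA of the members was read from repeats (transposable elements, TEs) inside their introns, as uniquely mapped fragments on the strand of the gene in TEs that overlap no GENCODE 44 exon. Such fragments can come from unspliced RNA, a retained intron or another transcript on that strand, which cannot be told apart here. Levels are given as CPM (the count scaled to the aligned fragments of its library), and the counts went into edgeR's quasi-likelihood test over 7596 genes, whose median log2 change was 0.32. None of the 9 members tested passed at an adjusted p under 0.05, where 11 genes, or 0.145%, did. At an unadjusted edgeR p under 0.05, 5 of the 9 were higher (DNMT3A, DNMT3B, SETDB1, DNMT1 and PPHLN1) and 0 lower, beside 13.8% higher and 0.276% lower over all genes. In 3 of the 9 (DNMT3B, DNMT1 and PPHLN1) every Z18trunc library lay above the controls, beside 18.2% of all genes, and none of the 9 lay below them, beside 1.05%. For DNMT1 this rested on 1 TE whose reads reached an exon. With TMM scaling, which takes out the shift of all introns, 1 of the 9 was left (DNMT3A), beside 240 genes higher and 220 lower over all, and with DESeq2 0 of the 9, with 92 genes higher and 106 lower. Without Z18trunc replicate 3 the 1 such member was PPHLN1, beside 8.78% of all genes. There were 3 without Clover replicates 1 or 2 or Z18trunc replicates 1 or 2, beside 15.0%, 11.7%, 14.1% and 10.1% of all genes, and 4 without Clover replicate 3, beside 9.49%.

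DNMT3A held 55, 30 and 20 intronic TE fragments in Clover and 60, 42 and 95 in Z18trunc, spread over 97 TEs of which the most covered had 15 fragments. Z18trunc replicate 3 was by far the highest, and Z18trunc replicate 2 lay below Clover replicate 1 in CPM. The levels were 1.68 ± 0.721 and 3.17 ± 1.19 CPM (SD, n = 3 each). The log2 change was 0.90 (SE 0.27, edgeR adjusted p = 0.110), and ran from 0.56 without Z18trunc replicate 3 to 1.29 without Clover replicate 1. When TEs overlapping exons were kept, the edgeR adjusted p was 0.0329, and 145 genes passed there in all. DNMT3B held 8, 7 and 9 fragments in Clover and 17, 14 and 25 in Z18trunc, low counts without overlap. Its log2 change was 1.20 (SE 0.47, edgeR adjusted p = 0.230), while its spliced level in TPM differed by 0.13 on the log2 scale.

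SETDB1 held 24, 18 and 30 intronic fragments in Clover and 20, 49 and 55 in Z18trunc. Z18trunc replicate 1 was the lowest of all 6 libraries in CPM, while the other two were the highest. A pair of old L1 pieces that overlap by 34 bases, L1M4 and L1MD3 (chromosome 1, 150932253 to 150932692), gave 24 and 25 of the fragments in Z18trunc replicates 2 and 3, 3 in replicate 1, and 5, 3 and 4 in Clover. The values of the pair are sums over both pieces, and a fragment lying across them could be counted in each. The log2 change of SETDB1 was 0.79 (SE 0.32, edgeR adjusted p = 0.241). ATF7IP held 33, 37 and 38 fragments in Clover and 53, 30 and 55 in Z18trunc, with overlap. They differed by 0.32 on the log2 scale (SE 0.28, edgeR adjusted p = 0.631). Its most covered TE was a HERVL-int element on the opposite strand to the gene (chromosome 12, 14488651 to 14494248), with 2, 3 and 6 fragments in Clover and 13, 6 and 9 in Z18trunc.

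Among the HUSH genes, PPHLN1 held 62, 49 and 52 fragments in Clover and 87, 72 and 70 in Z18trunc, without overlap. The change was 0.48 (SE 0.24, edgeR adjusted p = 0.342). TASOR and MPHOSPH8 introns differed by 0.07 and 0.05 (SE 0.33 and 0.38), with overlap, and both were below 0 with TMM scaling (-0.25 each). MORC2 held 20, 2 and 9 fragments in Clover and 19, 10 and 18 in Z18trunc, with overlap, a log2 change of 0.60 with the largest SE of the 9 (0.47). It was 1.40 without Clover replicate 1 and 0.15 without Clover replicate 2. TRIM28, which spans 6.65 kb, held 0 such fragments.

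On the opposite strand, MPHOSPH8 held 125 of the members' fragments, or 69.8%. They numbered 13, 11 and 18 in Clover and 20, 30 and 33 in Z18trunc, or 0.690 ± 0.196 and 1.37 ± 0.416 CPM (SD, n = 3 each). The lowest Z18trunc library (0.891 CPM) was just under the highest control (0.917 CPM). PSPC1, a paraspeckle gene, lies on that strand and ends 1310 bases past the end of MPHOSPH8. Its spliced level was 30.5 and 31.3 TPM in the group means. SETDB1 held 46 opposite-strand fragments, and no other member more than 3.

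**Figure D4:**
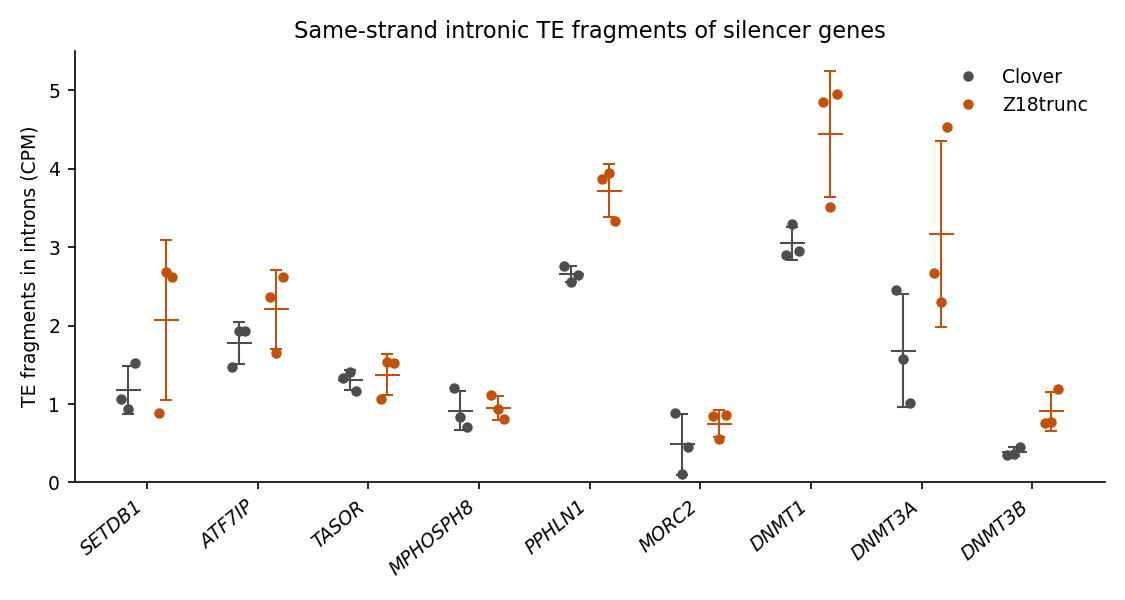
Same-strand intronic TE fragments in CPM of 9 silencer genes in 3 Clover (grey) and 3 Z18trunc (orange) libraries, with ticks for means and bars for the SD; TRIM28 had none. Z18trunc libraries lie above all controls for PPHLN1, DNMT1 and DNMT3B, and Z18trunc replicate 3 stands out for DNMT3A at 4.52 CPM. For DNMT1 the separation rested on a single TE whose reads reached an exon.

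DNMT1 held 65, 63 and 58 intronic fragments in Clover and 109, 64 and 104 in Z18trunc, without overlap in CPM. The log2 change was 0.55 (SE 0.23, edgeR adjusted p = 0.254). A single TE whose reads reached an exon held 340 of the 463 fragments. It had 46, 42 and 47 in Clover and 89, 47 and 69 in Z18trunc. The DNMT1 fragments outside this TE overlapped between the groups. With TEs whose reads reached an exon left out, 3 of the 9 members (DNMT3A, DNMT3B and SETDB1) were higher at an unadjusted edgeR p under 0.05, beside 13.4% of all genes. The log2 changes of DNMT1 (0.50) and PPHLN1 (0.51) were then about as large as with those TEs, with unadjusted edgeR p of 0.213 and 0.0521.

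RNA of 21 repeat subfamilies known as targets of TRIM28, HUSH, MORC2 or DNA methylation was then read on the strand of the repeat. The edgeR test on estimated counts called 3 of the 21 higher at an adjusted p under 0.05, beside 17 of 904 subfamilies, or 1.88%. The list was chosen with earlier results of these data known, and its L1 subfamilies can exchange counts. Its shares are therefore descriptive and no test of enrichment. At an unadjusted edgeR p under 0.05, 8 of the 21 were higher, beside 24.4% of all. In 9 of the 21 every Z18trunc library lay above the controls and in 1 (MER11A, chosen after its values were seen) below them, beside 27.4% and 1.33% of all subfamilies. Their median log2 change of 0.16 was below the 0.21 of all subfamilies. With TMM scaling the median was -0.04, against 0.01 for all subfamilies. LTR12C was the 1 of the 21 called there, beside 3 of all 904.

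L1HS, the youngest human L1 and a HUSH target, was at 31.4, 32.7 and 35.0 CPM in Clover and 40.3, 40.1 and 53.8 CPM in Z18trunc, without overlap. It rose by 0.44 on the log2 scale (SE 0.11, edgeR adjusted p = 0.0441). That call was lost with TMM scaling (edgeR adjusted p = 0.318), DESeq2 (DESeq2 adjusted p = 0.615) and the replicate block (edgeR adjusted p = 0.0925). It was also lost without any 1 of Clover replicates 1, 2 or 3 or Z18trunc replicate 3, the last giving 0.28 (edgeR adjusted p = 0.110). L1PA5 rose by 0.40 (edgeR adjusted p = 0.0441), from 81.5 ± 4.20 to 107 ± 16.9 CPM (SD, n = 3 each), and lost its call in the same settings (0.26 without Z18trunc replicate 3). L1PA2, the subfamily next in age to L1HS, was at 60.2, 65.2 and 57.0 CPM in Clover and 68.4, 71.0 and 105 CPM in Z18trunc, a log2 change of 0.42 (edgeR adjusted p = 0.0633). L1PA2 passed with uniquely mapped counts (edgeR adjusted p = 0.0381) and without Z18trunc replicate 1 or 2, and its change was 0.20 without Z18trunc replicate 3. L1HS did not pass with uniquely mapped counts (edgeR adjusted p = 0.0558). All 6 young L1 subfamilies were higher at an unadjusted edgeR p under 0.05, beside 24.4% of all subfamilies. The rise was not limited to them. Some older L1 subfamilies outside the list were also higher at that p, such as L1M5 (0.25), L1M6 (0.40) and L1M7 (0.40). Other older ones were not, such as L1MA1 (0.05) and L1M3f (0.02). With TMM scaling the log2 changes of the 6 young L1 subfamilies ran from 0.05 (L1PA6) to 0.23 (L1HS), and none of the 6 was called.

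LTR12C, the solo LTR of HERV9, was at 117, 117 and 114 CPM in Clover and 163, 183 and 175 CPM in Z18trunc. It rose by 0.58 on the log2 scale (SE 0.08, edgeR adjusted p = 7.53e-05). It passed in every setting run, with log2 changes between 0.38 and 0.63. The rise was not particular to the listed targets. Internal HERV9 sequences outside the list rose by 0.85 (HERV9NC-int, edgeR adjusted p = 8.3e-04) and 0.65 (HERV9-int, edgeR adjusted p = 0.0147). HERV9N-int differed by 0.47 and did not pass (edgeR adjusted p = 0.225). HERVH-int, of another family, rose by 0.54 (edgeR adjusted p = 7.5e-05). The 6 SVA subfamilies, hominoid composite elements silenced by TRIM28, differed by -0.08 to 0.16 and none passed. Estimated counts share multiply mapped fragments among copies, so near-identical L1 and SVA subfamilies can exchange counts.

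**Figure D5:**
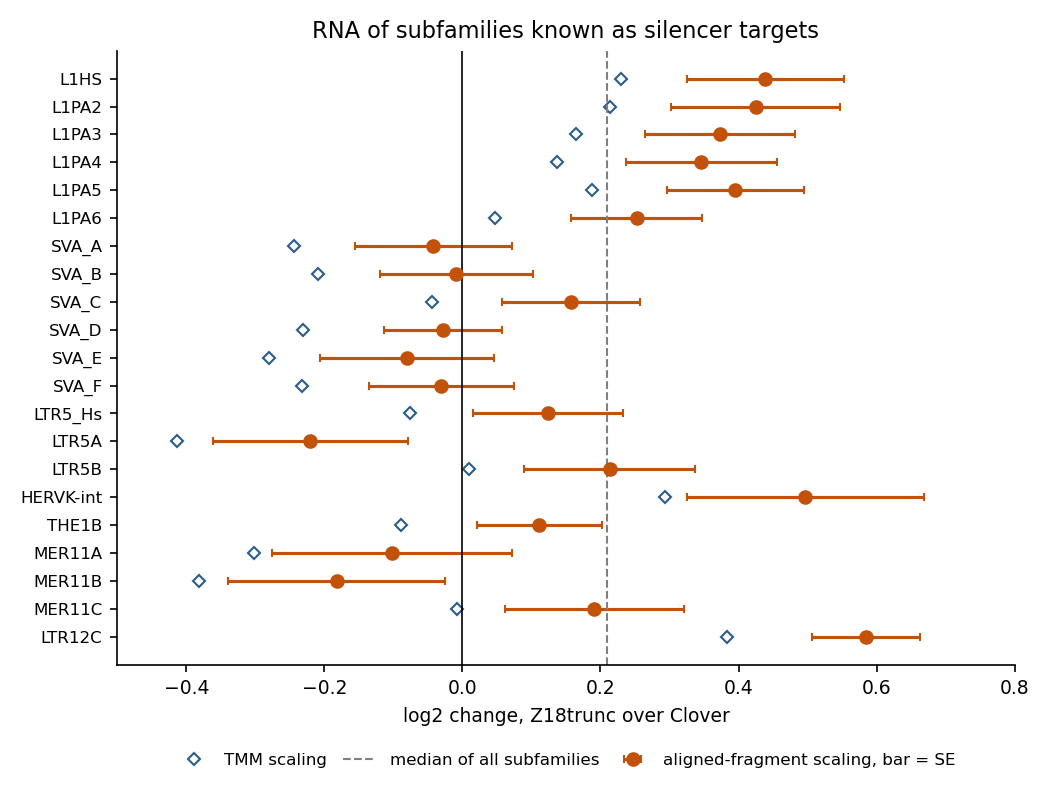
Log2 change, Z18trunc over Clover, of RNA from 21 repeat subfamilies, with circles and SE bars from edgeR scaled to aligned fragments, diamonds with TMM scaling, and a dashed line at the median of all 904 subfamilies (0.21). The 6 L1 subfamilies and LTR12C lie right of the dashed line with the first scaling, and the SVA subfamilies lie left of it.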

How the data were processed

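PolyA-selected RNA of 3 Clover and 3 Z18trunc SW480 lines was sequenced by the authors in stranded paired-end libraries and mapped to hg38, and the submitters' processing notes name cutadapt 4.6. The authors' SQuIRE tables, 1 per library, hold whole-number counts of uniquely mapped fragments per TE locus and strand. They also hold estimated counts, in which the authors shared multiply mapped fragments, and these were rounded here. The deposited gene tables, in StringTie layout, give TPM and FPKM without counts. TPM was the main value and the authors' FPKM an alternative. The SQuIRE version, and the version of StringTie behind these gene tables, are not given in the sources used here.

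Groups came from the sample titles. Genes were tested with limma 3.58.1 on log2(TPM + 1), after a filter of mean TPM of at least 1. Counts were tested with edgeR 4.0.16 in R 4.3.3 (quasi-likelihood, features with 30 or more counts in total, scaled to the aligned fragments), and the Benjamini-Hochberg adjustment covered every tested feature. Intronic TEs that lay in more than 1 gene were left out. A count of 0 allows up to 3 counts. The scripts were tested on simulated data. Named were the members, ZC3H18, up to 3 genes per list with the smallest p among those of mean TPM of at least 5 without overlap, the 5 genes most like the member mean, called target subfamilies, L1HS and L1PA2. Members and lists were chosen with earlier results of these data known. Alternatives were other scalings (quantile, median centring, TMM, DESeq2 1.42.0), pseudocount 0.1, other filters, FPKM, uniquely mapped or estimated counts, a replicate block, an intensity trend and leaving out each library. Leaving out TEs whose reads reach an exon was chosen after seeing the data. The sequence of 1 intronic repeat is not reported here.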

Additional observations from a re-analysis of the deposited data

How the results depend on the processing

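Depth limits the intron values, since 9 members held between 78 and 463 fragments over 6 libraries, and the gene tables give no counts, so the depth behind each TPM value is unknown. The replicate numbers did not pair the libraries (correlations of same-numbered deviations -0.04, 0.02 and -0.04).

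The number of genes called in TPM was 2, and 1 with quantile normalization, pseudocount 0.1, no filter, the replicate block or the most abundant row per gene, 60 with an intensity trend, 474 with a mean of at least 5 TPM, and 1 to 4 without 1 library. In introns it was 11, and 1 with TMM scaling, 0 with DESeq2 (92 genes higher and 106 lower unadjusted), 47 with at least 100 counts, 145 with exonic TEs kept, 4 with the replicate block, 6 without TEs whose reads reach an exon, and 0 to 20 without 1 library. For subfamilies it was 17, and 3 with TMM scaling, 2 with DESeq2, 58 with uniquely mapped counts, 7 with the replicate block, and 3 to 81 without 1 library. The cause was not tested. At an unadjusted p under 0.05, 3404 genes higher and 386 lower became 1708 and 1448 with quantile normalization, and 1357 and 2460 with median centring. The DNMT3B over DNMT3A log2 ratio differed by -0.37 to -0.23 without 1 library.

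Some members changed sign, none of them called. In TPM, median centring gave MORC2 -0.0219, DNMT1 -0.0166 and DNMT3B -0.0373, and quantile normalization gave DNMT3B -0.0640. In introns, TASOR was -0.25 with TMM scaling, -0.26 with DESeq2 and from -0.0173 to 0.23 without 1 library. MPHOSPH8 introns were -0.25 with TMM scaling, -0.25 with DESeq2, -0.0847 without TEs whose reads reach an exon and from -0.10 to 0.30 without 1 library. ATF7IP introns were -0.0100 with DESeq2. Under the replicate block, L1HS (log2 change 0.43, edgeR adjusted p = 0.0925) and L1PA5 (0.39, edgeR adjusted p = 0.0872) lost their calls, and no other named gene or subfamily changed its call. With DESeq2, L1HS was 0.22 (DESeq2 adjusted p = 0.615) and L1PA5 was 0.18 (DESeq2 adjusted p = 0.575), and both lost their calls there too.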
